A study of Mus musculus with 24 samples.

Results

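Tibialis anterior muscles of female mice that carried a disrupted Vps39 allele beside an intact one (Vps39+/-) were compared with those of female wild-type (WT) mice on Clariom S microarrays. The arrays were the 6 Vps39+/- and the 6 WT arrays with the letter F in the sample title, 12 of 24 in the series, and the labels give these mice as female. The Vps39+/- mice are germ-line heterozygotes, in which a cassette for neomycin resistance and green fluorescent protein interrupts an early exon in every tissue and not in muscle alone. The mice were given as 4 months old, though parts of the study give a range that reaches higher. All were on a C57BL/6J background and fed normal chow, and no drug treatment was named for them. Other experiments of the study gave mice oral glucose, and it did not say whether these muscles came from such mice. The whole muscle was homogenised, so the RNA came from fibres and from all other cells in the tissue, and fewer cells of a type cannot be told apart from less RNA per cell.

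VPS39 belongs to HOPS, a tethering complex that holds autophagosomes and late endosomes against the lysosome until their membranes fuse. Muscle relies on this route, beside the proteasome, to clear proteins and worn mitochondria. The tibialis anterior is a fast, mostly glycolytic muscle at the front of the shin, whose fibres still depend on mitochondrial oxidation for sustained work.

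All values are log2 levels after Robust Multi-array Analysis (RMA), and every difference is Vps39+/- minus WT on that scale. Acta1, the actin of adult skeletal fibres, lay between 13.61 and 13.76 in all 12 arrays. Liver transcripts were nevertheless present in some. Alb, which encodes the albumin that hepatocytes secrete into plasma, stood at 11.22, 6.74, 11.18, 6.38, 10.42 and 11.48 in Vps39+/- females 1 to 6, against 9.01, 13.56, 12.23, 7.06, 7.62 and 13.26 in WT females 1 to 6. WT females 2 and 6 stood highest, WT female 3 came next, and the groups overlapped widely (difference -0.89, two-sided exact permutation p = 0.567). The mean of 32 hepatocyte genes was likewise highest in WT females 2, 6 and 3, with 4.81 to 7.18 in Vps39+/- females, against 4.88 to 11.24 in WT females. All 32 genes were below 0 in the comparison of 6 with 6 (median -1.26), and 29 of 32 were above 0 once WT females 2 and 6 were left out (median 0.37). A difference or median that moved by over 1.5 times without these WT females is therefore given both ways. The values without WT female 3 as well, and in the 2 Vps39+/- and 3 WT arrays with Alb under 10, are added for the groups and genes that lead the account where they moved as much. The sample titles also carry a number of unstated meaning, and among females title number 1 alone holds both genotypes (Vps39+/- females 1 to 3 and WT females 1 and 2). A second, running number in the titles goes up to 6 in Vps39+/- females and from 7 in WT females, so anything it stands for cannot be told apart from genotype.

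**Figure D1:**
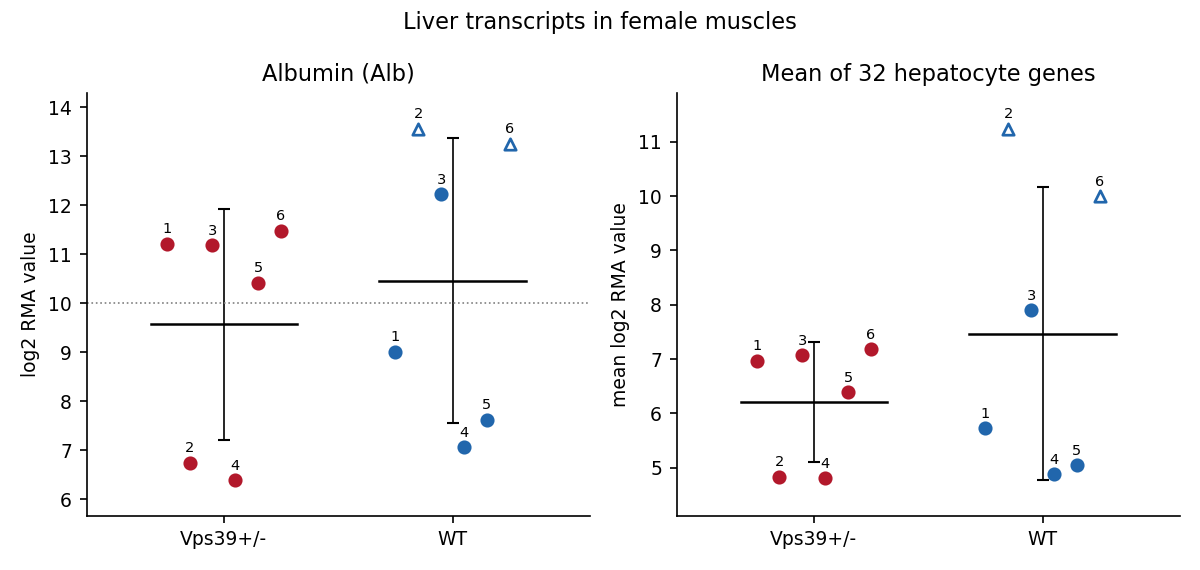
Log2 RMA level of Alb (left) and mean log2 level of 32 hepatocyte genes (right) in each female muscle, Vps39+/- left of WT, numbered by replicate. Open triangles are WT females 2 and 6, which hold the highest levels in both panels; lines are means, bars are SD (n = 6 each), and the dotted line marks the level of 10 below which 2 Vps39+/- and 3 WT arrays lie.

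The first question was where the targeted gene stood. Vps39 was 7.81, 8.06, 8.29, 6.67, 7.90 and 8.29 in Vps39+/- females, against 7.82, 7.12, 6.70, 7.02, 7.803 and 7.41 in WT females. Of the Vps39+/- arrays, 5 lay above the WT mean and Vps39+/- female 4 lay below every WT array. The mean was 7.84 ± 0.60 in Vps39+/- females and 7.31 ± 0.45 in WT females (SD, n = 6 each), a difference that the replicates did not separate (two-sided exact permutation p = 0.115). Without Vps39+/- female 4, the array that went against the other Vps39+/- arrays, the difference was 0.76 (two-sided exact permutation p = 0.013). No other selection of arrays compared in this way had a p under 0.05, so that p rests on leaving this array out. Vps39+/- females 2 and 4 were the only Vps39+/- arrays with Alb under 10, and among arrays below that level the difference was -0.18, while without WT females 2, 3 and 6 it was 0.29. The array's probes may lie outside the disrupted part of the gene, so this value checks no genotype label. By quantitative PCR across the disrupted part, the study reported lower Vps39 in tibialis anterior of Vps39+/- mice, males and females together.

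Across the array, no gene reached the threshold. After adjustment limma called 0 of 19572 named probe sets. Before adjustment 1628 (8.32%) lay under a p of 0.05, of which 1049 were higher (5.36%) and 579 lower (2.96%). The groups did not overlap at all for 67 probe sets higher in Vps39+/- (0.342%) and 23 lower (0.118%). Of all probe sets 56.5% lay above 0, against 51.3% without WT females 2 and 6, 51.1% without WT females 2, 3 and 6, 54.8% with Alb as a covariate and 52.2% in arrays with Alb under 10. The share of higher genes among those under the unadjusted threshold was 64.4%, against 51.6% without these WT females and 42.9% after cyclic loess scaling, so the balance of directions moved with the arrays and the scaling used. The smallest p belonged to Myo15, an unconventional myosin known from the hair cells of the ear, at a dim mean of 4.70 (outside the rule for named genes, and picked for its p). Its level was 4.78, 5.02 and 5.16 (lowest, median and highest) in Vps39+/- females, against 3.98, 4.39 and 4.63 in WT females, with no overlap (difference 0.61, SE 0.11, limma adjusted p = 0.162).

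**Figure D2:**
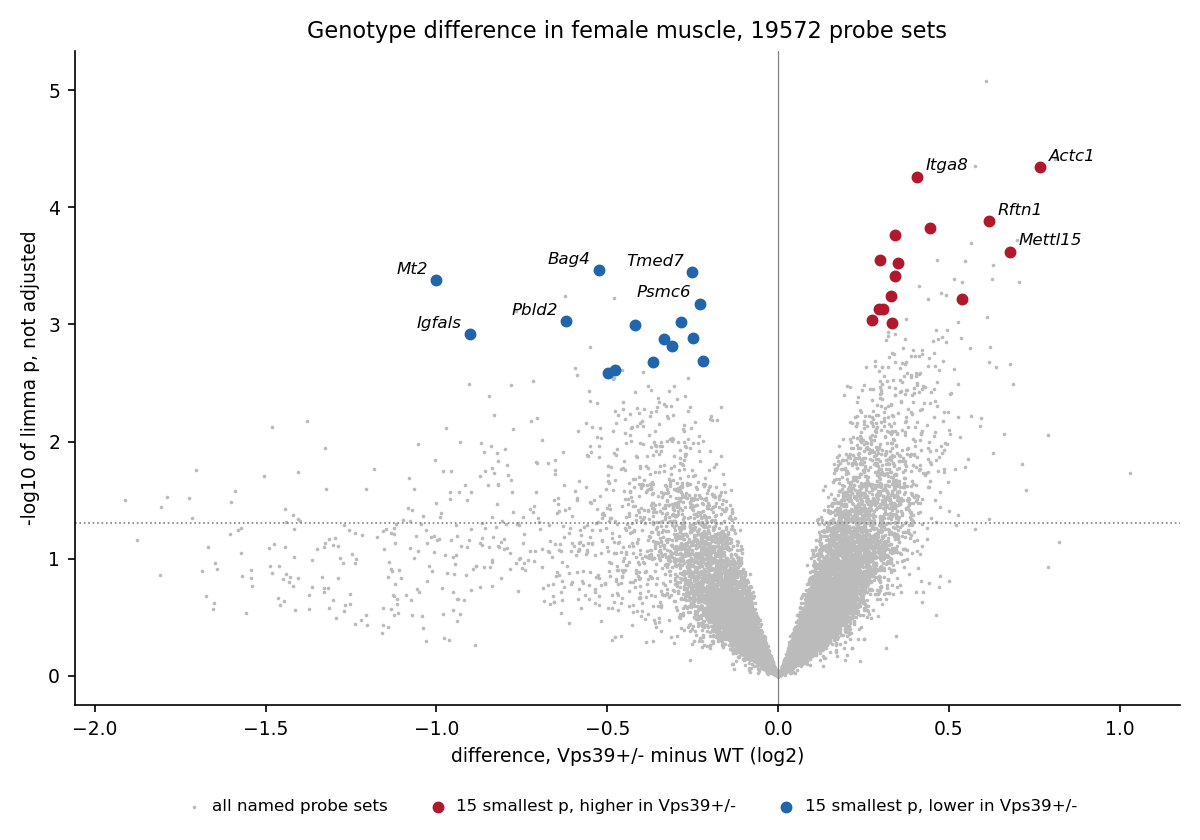
Difference between Vps39+/- and WT female muscle (x axis, log2) against the unadjusted limma p (y axis, -log10) for 19572 named probe sets, with the 15 genes of smallest p in each direction and a mean of 5 or more in colour. The dotted line marks an unadjusted p of 0.05; 1049 probe sets lie above it on the right and 579 on the left, and none passed after adjustment.

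Promoters are shown for the genes whose differences lead the account. Those of the metallothioneins Mt2 and Mt1 are shown because these paralogues bind zinc and copper and are switched on through metal response elements, and that of Actc1 because actin genes of striated muscle are known for CArG boxes, the sites of serum response factor. The windows run from 250 bases before to 50 after the start of each gene, 5′ to 3′, from RefSeq on GRCm38.p6, and 3 of 3 genes had an entry. Mt2 lies at chr8:94172368-94172667 (plus strand), Mt1 at chr8:94178839-94179138 (plus strand) and Actc1 at chr2:114052826-114053125 (minus strand). Capitals mark matches, on either strand, to TGCNCNC in Mt2 and Mt1, a loose form of the metal response element core, and to the CArG box in Actc1. The usual core has A or G at the first N, which TGCTCTC and GGGAGCA (on the other strand) in Mt2 lack.
Mt2: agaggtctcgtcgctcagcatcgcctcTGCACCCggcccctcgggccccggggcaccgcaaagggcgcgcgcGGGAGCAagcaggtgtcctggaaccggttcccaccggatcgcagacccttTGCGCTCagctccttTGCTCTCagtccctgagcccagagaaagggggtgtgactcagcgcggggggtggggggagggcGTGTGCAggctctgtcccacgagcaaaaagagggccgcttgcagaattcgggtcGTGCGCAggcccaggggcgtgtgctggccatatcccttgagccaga
Mt1: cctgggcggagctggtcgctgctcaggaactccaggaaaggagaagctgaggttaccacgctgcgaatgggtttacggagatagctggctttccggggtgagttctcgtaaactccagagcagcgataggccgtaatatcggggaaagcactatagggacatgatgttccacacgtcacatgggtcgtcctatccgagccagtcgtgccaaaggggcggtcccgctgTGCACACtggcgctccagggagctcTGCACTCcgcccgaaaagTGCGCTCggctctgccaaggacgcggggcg
Actc1: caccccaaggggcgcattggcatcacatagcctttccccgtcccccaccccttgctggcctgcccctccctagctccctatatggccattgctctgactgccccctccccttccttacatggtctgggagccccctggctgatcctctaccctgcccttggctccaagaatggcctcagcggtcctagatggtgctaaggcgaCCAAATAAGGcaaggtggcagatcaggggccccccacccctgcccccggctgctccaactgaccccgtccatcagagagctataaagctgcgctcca
The Mt2 window held 6 matches to this loose form and the Mt1 window 3, as separate stretches that do not overlap. Of 32851 windows of this length 51.0% held at least 1 match, 7.1% at least 3 and 0.225% at least 6. The Actc1 window held 1 CArG box, found in 1.63% of windows, and also 4 matches to the loose metal response form that are not marked. A match to letters is no proof of a site.

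Among genes higher in Vps39+/- females, the smallest p in a clearly expressed gene belonged to Actc1, the actin of heart and of developing skeletal muscle. Its level was 9.65, 9.74 and 9.83 (lowest, median and highest, as in what follows) in Vps39+/- females, against 8.48, 8.86 and 9.44 in WT females. The Vps39+/- muscles lay close together and all above the highest WT muscle, WT female 2, while the WT muscles were spread more widely (difference 0.77, SE 0.15, 1.7-fold, limma adjusted p = 0.214). It was 0.84 without WT females 2 and 6 and 0.58 within title number 1. Acta1, whose sequence is nearly identical and could share its probes, differed by 0.023, and by -0.0015 without WT females 2 and 6. Actc1 lies 6.26 Mb from Vps39 on chromosome 2. Of the other genes named by the rule below, Emc7 (7.84 Mb), Mrps26 (10.21 Mb) and Mettl15 (11.04 Mb) are also near it, and Ctsz, Urm1 and Itga8 lie farther along the same chromosome, at 54.07 to 108.0 Mb. For genes close to the targeted locus the disruption cannot be told apart from linked alleles.

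Of the other genes in this direction, 4 encode membrane, adhesion or matrix proteins. Itga8, an integrin that binds nephronectin, stood at 5.95, 6.05 and 6.48 in Vps39+/- females, against 5.46, 5.73 and 5.85 in WT females. Rftn1, a protein of lipid rafts, stood at 6.36, 6.47 and 6.85 in Vps39+/- females and 5.46, 5.85 and 6.33 in WT females. Neither overlapped, although Vps39+/- female 1 was well above the other Vps39+/- muscles for both genes (differences 0.41, SE 0.083, and 0.62, SE 0.14, limma adjusted p = 0.214 and 0.357). Plekha7, of adherens junctions, differed by 0.33 and also did not overlap. Col19a1, a collagen of basement membrane zones, differed by 0.33 with overlap.

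A further 5 of the 15 act on RNA or belong to the mitochondrial ribosome. Urm1, a ubiquitin-like protein that donates sulfur to transfer RNA, stood at 6.89, 7.00 and 7.18 in Vps39+/- females, against 6.63, 6.73 and 6.84 in WT females, without overlap. Trmt5, which methylates transfer RNA, differed by 0.34, with WT female 3 inside the Vps39+/- range and the other 5 WT muscles below it. Mettl15, a methyltransferase of mitochondrial ribosomal RNA, differed by 0.68 (SE 0.16), Mrps26, of the small mitochondrial ribosomal subunit, by 0.27, and Fam50a, a nuclear protein tied to splicing, by 0.30. These 3 overlapped between the groups.

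The remaining 5 of the 15 were mixed in role. Pdlim2, a PDZ and LIM domain protein, Vps53, of the GARP complex that returns endosomal vesicles to the Golgi, and Brd7, a bromodomain subunit of the PBAF remodeller, differed by 0.34, 0.31 and 0.35. Aurkc, a kinase known from meiosis, differed by 0.44, and Fam240a by 0.54. None of the 5 overlapped between the groups. Of all 15, 10 did not overlap, beside 0.342% of all probe sets. All 15 kept their direction without WT females 2 and 6, with Alb as a covariate and within title number 1. These genes were picked for small p in these same arrays, and that choice alone favours such counts. The difference without WT females 2 and 6 was between 0.715 and 1.099 of its size. All 15 were also above 0 without WT females 2, 3 and 6 and in arrays with Alb under 10, but 5 were smaller by over 1.5 times in at least one of these. Rftn1 stood at 0.37 and Brd7 at 0.23 without WT females 2, 3 and 6. In arrays with Alb under 10, Rftn1 stood at 0.33, Brd7 at 0.18, Plekha7 at 0.22, Fam240a at 0.31 and Col19a1 at 0.063. The limma adjusted p were 0.214 to 0.432.

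Among genes lower in Vps39+/- females, the widest difference of the 15 named by the rule was in Mt2. Its level was 7.29, 7.27, 7.62, 8.40, 8.61 and 8.27 in Vps39+/- females 1 to 6, against 8.94, 9.24, 8.98, 8.61, 9.32 and 8.36 in WT females. Vps39+/- females 1, 2 and 3 were low, Vps39+/- female 6 lay just below the WT range and Vps39+/- females 4 and 5 inside it (difference -1.001, SE 0.24, limma adjusted p = 0.357). It was -1.05 without WT females 2 and 6 and -1.70 within title number 1. Mt1 followed with 8.72, 9.47 and 9.90 in Vps39+/- females, against 9.22, 9.91 and 10.07 in WT females, a difference of -0.35 with 4 of 6 Vps39+/- muscles below the WT mean, and of -0.58 without WT females 2, 3 and 6. In the list of 16 metallothionein and zinc genes 9 were below 0, against 43.5% of all probe sets (median -0.071, and -0.0075 without WT females 2, 3 and 6). Of the 9, Slc39a8, a zinc importer, and Gclc, of glutathione synthesis, differed by -0.71 and -0.43. Without WT females 2 and 6, where both stood highest, the differences were -0.14 and -0.12.

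Of the lower genes, 5 act in protein folding, insertion, export or glycosylation. Bag4, a co-chaperone of HSP70, was 4.75, 5.24 and 5.62 in Vps39+/- females, against 5.55, 5.72 and 5.87 in WT females, with only the highest Vps39+/- muscle inside the WT range (difference -0.52, SE 0.13, limma adjusted p = 0.357). Tmed7, a cargo receptor between endoplasmic reticulum and Golgi, was 9.19, 9.24 and 9.38 in Vps39+/- females, against 9.44, 9.51 and 9.64 in WT females, without overlap (difference -0.25, SE 0.06). Ddost, of the enzyme that attaches glycans to new proteins, and Emc7, of the complex that inserts membrane proteins, differed by -0.22 and -0.25, the first of them without overlap. Gcnt2, which branches glycan chains, differed by -0.33 and did not overlap either.

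Psmc6, an ATPase at the base of the proteasome's regulatory particle, was 9.32, 9.37 and 9.49 in Vps39+/- females, against 9.53, 9.62 and 9.72 in WT females. All 6 Vps39+/- muscles lay below the lowest WT muscle, WT female 2 (difference -0.23, SE 0.059, limma adjusted p = 0.382). Of 40 proteasome genes measured, 31 were below 0 against 43.5% of all probe sets, with a median of -0.063, and 5 were lower and 0 higher at an unadjusted p under 0.05, beside 2.96% and 5.36% of all probe sets. Besides Psmc6 these were the regulatory subunits Psmd8 (-0.36) and Psmc2 (-0.15) and the core subunits Psma5 (-0.22) and Psma2 (-0.14). Without WT females 2 and 6, 33 were below 0 and the median was -0.085, and in arrays with Alb under 10 it was -0.11. Males went the same way, with 7 of 40 above 0, where 49.5% of all probe sets were, and a median of -0.058. The genotype by sex interaction had an unadjusted p under 0.05 for 0 of the 40, beside 7.79% of all probe sets. The mean level of the 40 genes was 8.84, 8.86 and 8.92 in Vps39+/- females, against 8.86, 8.94 and 9.03 in WT females, so the groups overlapped. The study itself singled out the proteasome on these samples, so its direction here is not independent evidence.

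The other lower genes were Cfl1, the actin-severing cofilin of non-muscle cells (-0.28), Utp18, of ribosomal RNA processing (-0.42), Adgra3, an orphan adhesion receptor (-0.31), Ifi27, an interferon-induced gene (-0.36), Ly96, which presents endotoxin to TLR4 (-0.48), Pbld2 (-0.62) and the lysosomal protease gene Ctsz (-0.50). Igfals, the liver-made subunit that holds IGF1 in the circulation, was 4.77, 4.71, 5.06, 5.25, 5.22 and 5.76 in Vps39+/- females, against 5.27, 7.13, 6.10, 5.49, 6.12 and 6.07 in WT females. It was highest in WT female 2, the muscle of highest Alb, and its difference of -0.90 (SE 0.25) stood at -0.62 without WT females 2 and 6. Igf1 itself differed by -0.82, and by 0.074 without them, with 11.02 and 10.12 in WT females 2 and 6, against at most 8.48 in the other 10 muscles. Of the 15 lower genes 5 did not overlap, beside 0.118% of all probe sets, and they too were picked for small p in these arrays. All 15 kept their direction without WT females 2 and 6, but the difference of Ctsz then stood at -0.27. All 15 were also below 0 under the stricter selections, at smaller values for some. Ifi27 stood at -0.16, Igfals at -0.50 and Ctsz at -0.31 without WT females 2, 3 and 6. In arrays with Alb under 10, Ifi27 stood at -0.13, Adgra3 at -0.16 and Ly96 at -0.30. The limma adjusted p of the 15 were 0.357 to 0.465.

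**Figure D3:**
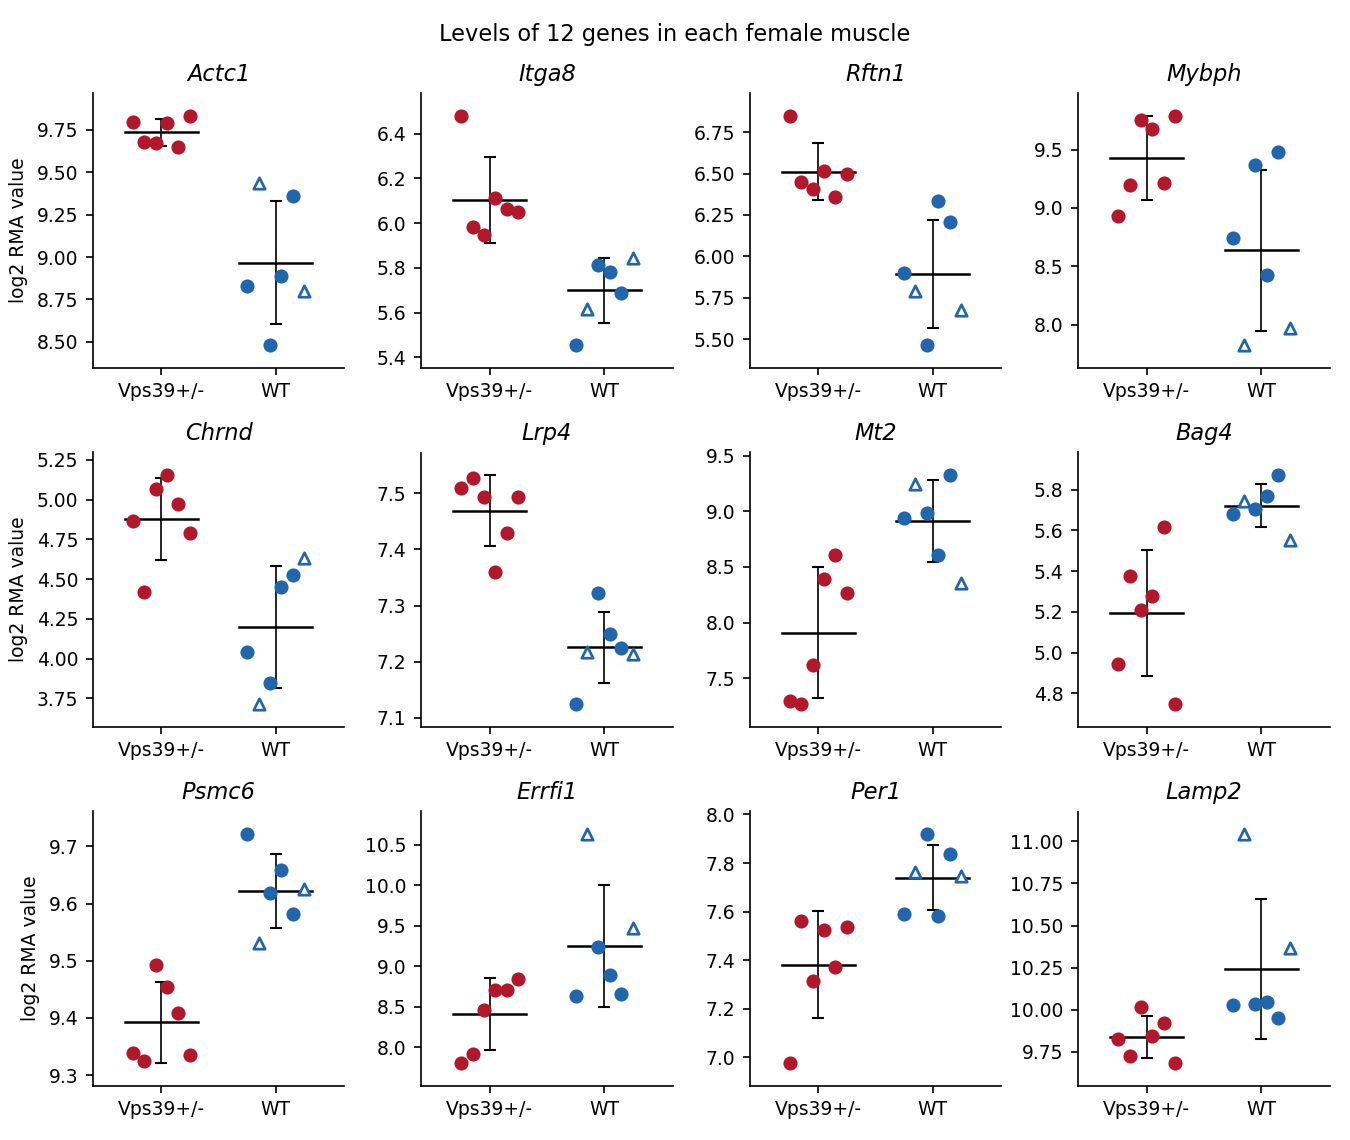
Log2 RMA level of 12 genes in each female muscle, Vps39+/- left of WT, with mean (line) and SD (bar), n = 6 each. Open triangles are WT females 2 and 6, which are the highest muscles for Errfi1 and Lamp2. With all 12 arrays, Actc1, Itga8, Rftn1, Lrp4, Psmc6 and Per1 did not overlap between the groups.

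Genes of mitochondrial respiration lay above 0 almost without exception, by small amounts. Of 76 respiratory chain subunit genes 74 were above 0, against 56.5% of all probe sets, with a median difference of 0.11. At an unadjusted p under 0.05, 16 were higher and 0 lower, beside 5.36% and 2.96% of all probe sets. The mean level of the 76 genes was 10.72, 10.77 and 10.79 in Vps39+/- females, against 10.54, 10.67 and 10.74 in WT females. WT females 1, 2 and 3 were low, while WT female 4 lay inside the Vps39+/- range and WT females 5 and 6 just below it.

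The direction was shared across the complexes. In complex I, which takes electrons from NADH, 35 of 35 genes were above 0 (median 0.11), with Ndufb6 at 10.29, 10.34 and 10.40 in Vps39+/- females, against 9.99, 10.19 and 10.30 in WT females (0.19, SE 0.071). Ndufs7, also of complex I, differed by 0.18, and by 0.12 without WT females 2 and 6. In complexes II to V 39 of 41 were above 0 (median 0.10), led by the complex II genes Sdhc and Sdhb. Sdhb stood at 11.75, 11.80 and 11.85 in Vps39+/- females, against 11.44, 11.56 and 11.71 in WT females, without overlap (0.23, SE 0.09, limma adjusted p = 0.545), and Sdhc differed by 0.24. Of complex IV, the subunit genes Cox5b, which did not overlap, and Cox7a1, the striated muscle form, both differed by 0.17.

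The tricarboxylic acid cycle, which feeds the chain, had 17 of 17 genes above 0 (median 0.097), with Mdh2 and Pdhb at 0.18 each. The mitochondrial ribosome had 30 of 36 (median 0.086), led by Mrpl22 (0.27, and 0.16 without WT females 2 and 6). Fatty acid oxidation had 22 of 23 (median 0.13), with 0 members at an unadjusted p under 0.05, beside 8.32% of all probe sets. Lpl, the lipase that frees fatty acids for uptake, differed by 0.35 (SE 0.21). In glycolysis 19 of 24 were above 0 with a median of 0.056, and Ldhb, the lactate dehydrogenase of oxidative fibres, differed by 0.58 (SE 0.29). Beside the counts of these lists, 56.5% of all probe sets lay above 0.

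How far these medians moved without the liver-rich WT muscles differed by list. Without WT females 2 and 6, the respiratory chain median was 0.10 with 75 of 76 above 0, the cycle's 0.088, the mitochondrial ribosome's 0.088 and that of fatty acid oxidation 0.11, while the glycolysis median was 0.024 with 15 of 24 above 0. All were smaller without WT females 2, 3 and 6. The respiratory chain then had 66 of 76 above 0 (median 0.069), the cycle 15 of 17 (0.047), the mitochondrial ribosome 24 of 36 (0.037) and glycolysis 15 of 24 (0.015). Fatty acid oxidation had 11 of 23 above 0, with its median at 0, and leaving out WT female 3 alone brought it to 0.014. In arrays with Alb under 10, 66 of 76 respiratory chain genes were above 0 (median 0.064), 17 of 17 of the cycle (0.078), 22 of 36 of the mitochondrial ribosome (0.046) and 12 of 23 of fatty acid oxidation (0.016). Among single genes, Ndufb6 stood at 0.10 and Mdh2 and Pdhb at 0.10 each without WT females 2, 3 and 6, and Sdhc at 0.09 in arrays with Alb under 10. Within title number 1 the respiratory chain median was 0.19. In males the medians of the respiratory chain, the cycle and the mitochondrial ribosome were -0.053, -0.067 and -0.043, and 9 of 76 respiratory chain genes were above 0, where 49.5% of all probe sets were. The genotype by sex interaction had an unadjusted p under 0.05 for 16 of the 76 genes, beside 7.79% of all probe sets, and an adjusted p under 0.05 for 0.

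**Figure D4:**
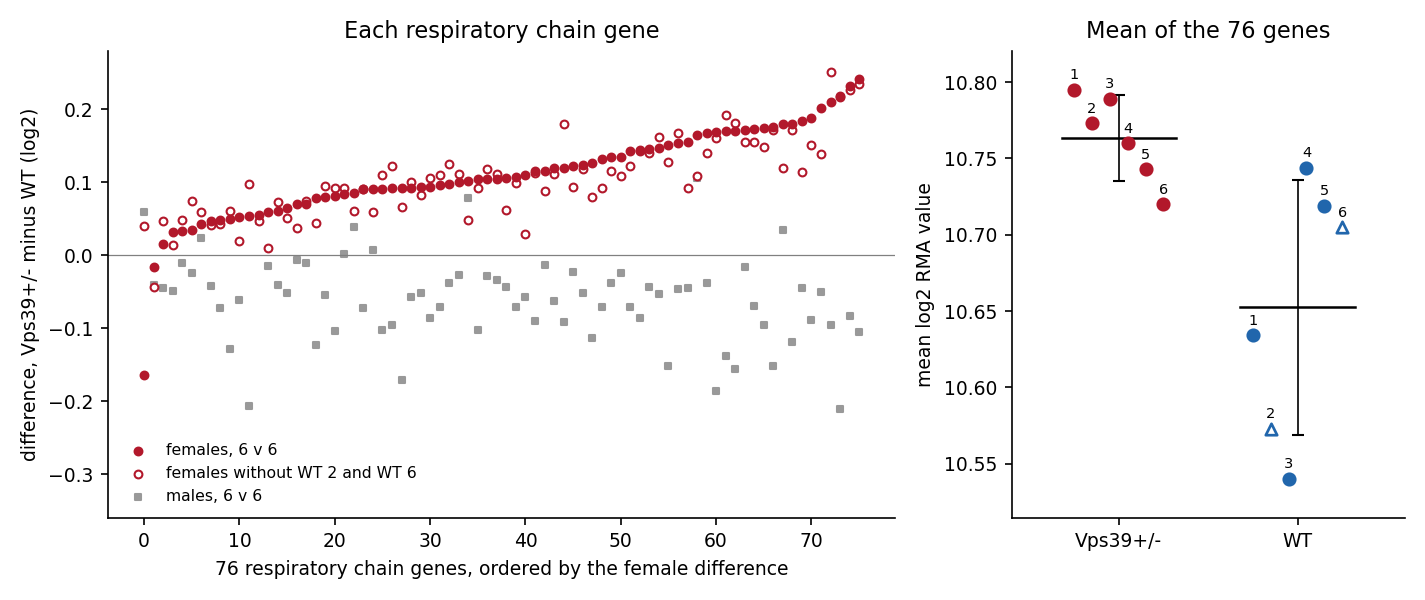
Left, difference between Vps39+/- and WT (log2) of 76 respiratory chain genes, ordered by the female value, in females (filled circles), in females without WT females 2 and 6 (open circles) and in males (squares); 74 of the 76 female values lie above 0 and 9 of the male ones. Right, the mean log2 level of the 76 genes in each female muscle, numbered by replicate, with mean and SD (n = 6 each); open triangles are WT females 2 and 6.

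Genes of the neuromuscular junction, the synapse between nerve and fibre, stood higher for some members. Of 24 genes 17 were above 0, against 56.5% of all probe sets (median 0.11). At an unadjusted p under 0.05, 5 were higher and 0 lower, beside 5.36% and 2.96% of all probe sets. Chrnd, the delta subunit of the acetylcholine receptor, was 4.42, 4.92 and 5.15 in Vps39+/- females, against 3.71, 4.25 and 4.63 in WT females (a dim level; 0.68, SE 0.20, limma adjusted p = 0.465). Lrp4, the receptor for the nerve signal agrin, was 7.36, 7.49 and 7.53 in Vps39+/- females, against 7.12, 7.22 and 7.32 in WT females, without overlap (0.24, SE 0.086). Etv5, a transcription factor active at the synapse, Ache, which degrades acetylcholine, and Colq, which anchors it, differed by 0.63, 0.33 and 0.21. Without WT females 2 and 6 these 5 genes stood at 0.66, 0.24, 0.50, 0.33 and 0.17, and the list's median at 0.068. The median was 0.031 without WT females 2, 3 and 6 and 0.007 in arrays with Alb under 10, both with 13 of 24 above 0, and Chrnd stood at 0.45 in the arrays with Alb under 10. Schwann cell and nerve markers had 10 of 12 above 0, against 56.5% of all probe sets (median 0.15). Their mean level was 5.39, 5.44 and 5.50 in Vps39+/- females, against 5.06, 5.36 and 5.44 in WT females. The part of these cells in the result was not tested.

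Sarcomere genes of adult fibres were nearly level. The medians were 0.016 for 19 fast-fibre and 0.061 for 16 slow-fibre genes, and -0.0015 and 0.015 without WT females 2 and 6. Of either list 0 members had an unadjusted p under 0.05, beside 8.32% of all probe sets. Of 16 genes listed as cardiac and developmental sarcomere, 10 were above 0, against 56.5% of all probe sets (median 0.077, and 0.046 without WT females 2, 3 and 6). The 4 that passed the unadjusted threshold were all higher, beside 5.36% of all probe sets. Besides Actc1 they were Mybph, a myosin-binding protein, at 8.93, 9.44 and 9.78 in Vps39+/- females, against 7.83, 8.59 and 9.48 in WT females (0.79, SE 0.28). The others were the dim atrial genes Nppa (0.35), a hormone gene in the list that is not of the sarcomere, and Myl7 (0.30). Mybph was lowest in WT females 2 and 6 and differed by 0.42 without them. Myogenic regulators had a median of 0.022, and -0.049 without them, with 0 of 23 under the unadjusted threshold, beside 8.32% of all probe sets. Of 22 genes of the myostatin and IGF axis 14 were below 0, against 43.5% of all probe sets (median -0.062), while Fst, the antagonist of myostatin, differed by 0.25.

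Genes known to respond to glucocorticoids, the adrenal stress hormones, were lower almost throughout the list. Of 22 genes 20 were below 0 against 43.5% of all probe sets, the median was -0.26, and 6 (Mt2, Per1, Errfi1, Lcn2, Ddit4 and Nfkbia) were lower and 0 higher at an unadjusted p under 0.05, beside 2.96% and 5.36% of all probe sets. The mean level of the list was 7.57, 7.76, 8.22, 8.24, 8.33 and 8.15 in Vps39+/- females 1 to 6, against 8.37, 8.79, 8.35, 8.33, 8.28 and 8.42 in WT females. Vps39+/- females 1 and 2 were lowest, WT female 2 was highest, and only Vps39+/- female 5 reached the WT range. These 3 arrays of extreme level share title number 1 with Vps39+/- female 3 and WT female 1, and within that number the median was -0.48.

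Members differed in which arrays set the difference. Per1, a clock gene that glucocorticoids induce, was 6.98, 7.45 and 7.56 in Vps39+/- females, against 7.58, 7.76 and 7.92 in WT females, without overlap, and stood at -0.35 without WT females 2 and 6 (-0.36 with them, SE 0.12, limma adjusted p = 0.502). Errfi1, which restrains the EGF receptor, was 7.805, 8.58 and 8.85 in Vps39+/- females, against 8.63, 9.06 and 10.63 in WT females, and its difference of -0.85 stood at -0.45 without them. Lcn2, an iron-binding protein of the acute phase that liver also makes, behaved likewise (-1.08, and -0.40 without them). Ddit4, an inhibitor of mTORC1, was 6.49, 6.43, 7.66, 8.36, 7.85 and 8.15 in Vps39+/- females, against 8.26, 7.89, 8.54, 9.30, 8.60 and 7.37 in WT females. It was lowest in Vps39+/- females 1 and 2, and its difference was -0.84 with and -1.19 without WT females 2 and 6. Nfkbia, the inhibitor of NF-kappaB, and Cdkn1a, the cell cycle inhibitor p21, listed among atrophy genes, were also lowest in Vps39+/- females 1 and 2 (-0.32 and -0.65). Without WT females 2 and 6 the list's median was -0.20, in arrays with Alb under 10 it was -0.15 (Per1 -0.13), and without Vps39+/- female 1 it was -0.19.

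Lysosomal genes, the destination of HOPS traffic, were near level as a list. Of 38 genes 24 were below 0, against 43.5% of all probe sets (median -0.044), and 4 were lower and 0 higher at an unadjusted p under 0.05, beside 2.96% and 5.36% of all probe sets. Lamp2, a membrane protein of lysosomes, was 9.69, 9.84 and 10.02 in Vps39+/- females, against 9.95, 10.04 and 11.04 in WT females. Lipa, the acid lipase, was 6.10, 6.37 and 6.51 in Vps39+/- females, against 6.39, 6.59 and 8.43 in WT females. Both were highest in WT females 2 and 6, the muscles of highest Alb, and the differences of -0.41 and -0.67 stood at -0.18 and -0.14 without them. The proteases Ctsz and Ctsl differed by -0.50 and -0.24, and by -0.27 and -0.11 without them.

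The genes that work beside VPS39 were also near level. Of 15 HOPS and CORVET genes, Vps39 included, 9 were below 0, against 43.5% of all probe sets (median -0.0092). Vps41, the HOPS subunit at the opposite end of the tether, was 7.44, 7.63 and 7.73 in Vps39+/- females, against 7.61, 7.79 and 8.02 in WT females, with overlap (-0.20, SE 0.079, limma adjusted p = 0.545), and -0.21 without WT females 2 and 6. Of 43 autophagy genes 24 were above 0, against 56.5% of all probe sets (median 0.025). Epg5, a tether of autophagosomes to lysosomes, differed by 0.27 (0.17 without WT females 2 and 6) and the cargo receptor Tax1bp1 by -0.16. Regulators of mTOR at the lysosome had a median of 0.062, with Lamtor1, their anchor on the lysosomal membrane, at 0.20 (0.13 without WT females 2 and 6, and 0.0048 in arrays with Alb under 10). The medians of the 3 lists without WT females 2 and 6 were -0.052, -0.022 and 0.038.

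Insulin signalling to the glucose transporter GLUT4 had 12 of 26 genes above 0, against 56.5% of all probe sets (median -0.0086, and -0.072 without WT females 2 and 6). Slc2a4, which encodes GLUT4, was 9.30, 9.39 and 9.54 in Vps39+/- females, against 8.97, 9.30 and 9.35 in WT females, and its difference of 0.15 stood at 0.082 without WT females 2 and 6. Tbc1d1 and the GTPase Rab8a, which regulate its transport, differed by -0.21 and -0.22, and Rab8a by -0.068 without them. Among chaperones, Hsp90b1 and Hspa5 of the endoplasmic reticulum differed by -0.32 and -0.20, and by -0.14 and -0.15 without them, while Dnajb4, a co-chaperone of HSP70, and Bag2, which inhibits the ligase CHIP, differed by -0.26 and 0.23. Enzymes that modify DNA or histones had 43 of 71 above 0, against 56.5% of all probe sets (median 0.032, and -0.039 without them). The demethylases Kdm5c and Kdm2a differed by 0.29 and -0.21, and the dim arginine methyltransferase Prmt8 by 0.55 (SE 0.14, limma adjusted p = 0.379).

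Markers of the other cell types in the tissue were read beside these results. Endothelial markers had 16 of 19 above 0, against 56.5% of all probe sets (median 0.13). Their mean levels were 7.26, 7.33 and 7.45 in Vps39+/- females, against 7.06, 7.24 and 7.48 in WT females. Emcn and Tie1, both surface proteins of endothelium, differed by 0.33 and 0.27, and by 0.20 and 0.21 without WT females 2 and 6. WT females 2 and 3 were the lowest muscles for the list, and without WT females 2 and 6 its median was 0.079. Without WT female 3 as well it was -0.017, with Emcn at -0.017 and Tie1 at 0.11.

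Adipocyte markers had 15 of 21 below 0, against 43.5% of all probe sets (median -0.12), but the direction turned without WT females 2 and 6 (median 0.063). Mean levels of the list were 6.63, 6.74 and 6.92 in Vps39+/- females, against 6.32, 6.75 and 7.801 in WT females, with WT females 2 and 6 on top. Thrsp, which promotes lipid synthesis, and Pck1, of gluconeogenesis and glyceroneogenesis, are made in fat and in liver and differed by -0.50 and -1.13, and by -0.12 and -0.045 without them. Cyp2e1, a liver cytochrome, was likewise highest in WT females 2 and 6 (-1.42, and 0.044 without them). Macrophage markers had 14 of 19 below 0, against 43.5% of all probe sets (median -0.12, and 0.019 in arrays with Alb under 10). C1qb, of complement, differed by -0.48, and by -0.21 without WT females 2 and 6. Of 14 lymphocyte markers 9 were above 0, against 56.5% of all probe sets (median 0.12, and 0.024 without WT females 2 and 6). Only 2 reached a mean of 5. Cd8a, Cd79b and Cd3e, all dim, differed by 0.49, 0.38 and 0.27, while the lowest member stood at -0.26. The part of these cells in the differences above was not tested.

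**Figure D5:**
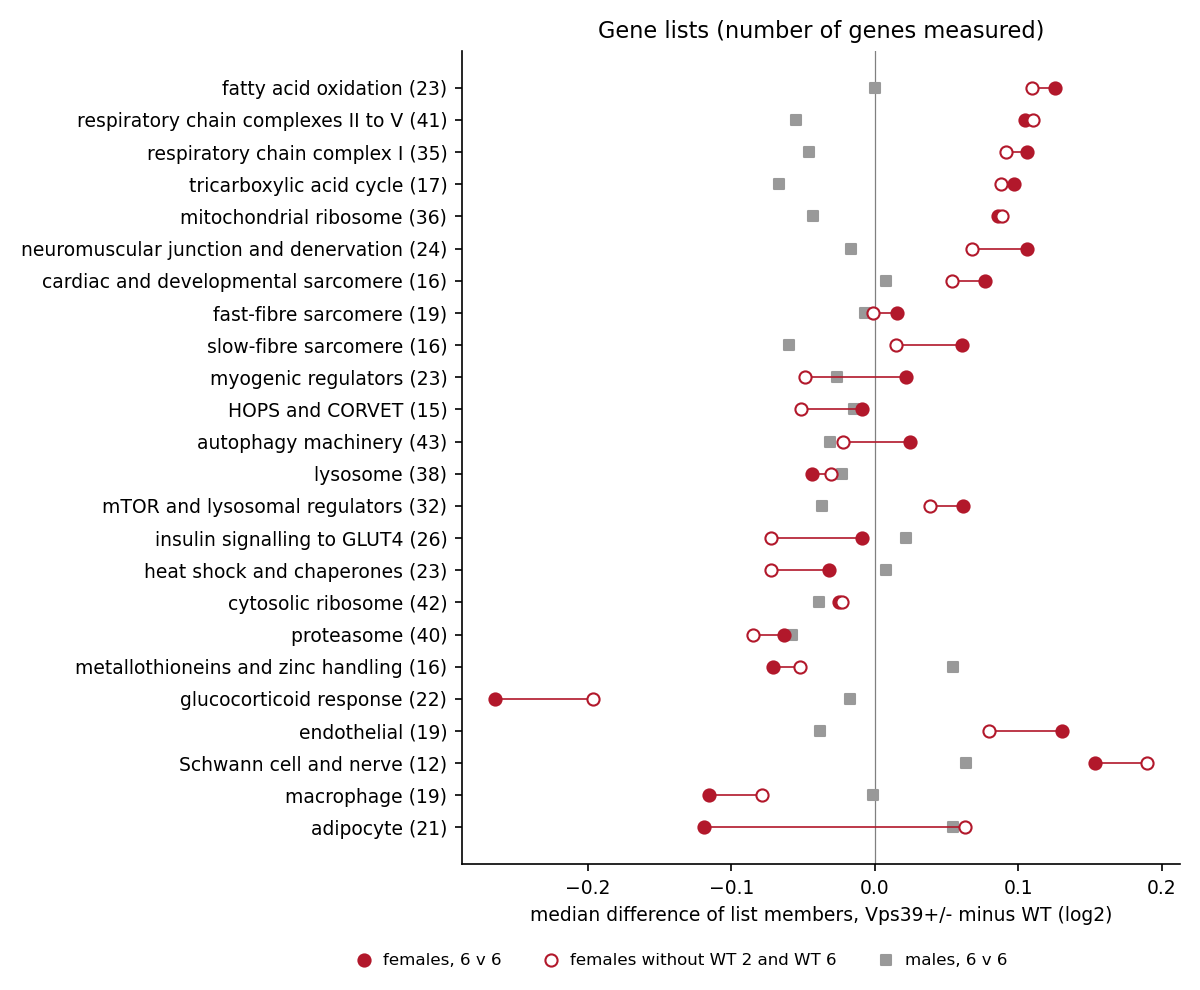
Median difference between Vps39+/- and WT (x axis, log2) of the members of 24 gene lists, in females (filled circles), in females without WT females 2 and 6 (open circles) and in males (squares), with the number of genes measured in brackets. Respiratory lists stay near 0.1 without WT females 2 and 6, glucocorticoid genes lie lowest, and the adipocyte median changes side.

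The same genes were set beside the males. Of the 15 genes higher in Vps39+/- females, 9 were above 0 in males, at differences between -0.14 and 0.16. Of the 15 lower ones, 8 were below 0 in males, at differences between -0.33 and 0.45. Actc1 was -0.0072 in males, Mt2 0.29, Igfals 0.45 and Utp18 -0.33. These genes were chosen for their female difference, and that choice alone favours smaller values in males. Over all 19572 probe sets, limma's test of the genotype by sex interaction called 0 after adjustment, beside 1525 at an unadjusted p under 0.05, so no gene was shown to differ between the sexes in its response.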

How the data were processed

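Tibialis anterior RNA of 24 mice had been hybridised to Clariom S arrays. The authors deposited log2 values made with Expression Console version 1.4.1.46 by RMA, which subtracts background, equalises the arrays' distributions and summarises probes, so that a shift shared by most genes is removed and dim levels are compressed. The annotation's genome build was not given in the sources used here. Of 28846 probe sets, 6640 controls were left out, and 19572 of the other 22206 carried a gene symbol and were tested. Symbols were checked by Entrez identifier against RefSeq of GRCm38.p6 (19572 matched). Arrays have no read depth, and their number limits the precision. Array medians lay between 5.55 and 5.64, and pairs of female arrays correlated with r of 0.94 to 0.989.

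Groups came from the labels. Replicate numbers follow accession order and pair no mice. Limma 3.58.1 in R 4.3.3 was fitted to 4 group means over all 24 arrays, with Benjamini-Hochberg adjustment over 19572 probe sets and two-sided tests. The study compared mice by unpaired tests. Single values were compared by exact permutation over 924 splits. The genes named were Vps39, Alb, the 15 of smallest p per direction with a mean of 5 or more, and up to 5 members of smallest p per gene list, and for a gene with several probe sets the one of highest mean was used. Acta1 and Myo15 were added after their values were seen. Members, genes and the 40 lists were chosen with earlier results of these data known. Alternatives were other scalings, filters, array weights, an intensity trend with a robust prior, females alone, the title number as block, the methods' t-test, Alb as a covariate, leaving out WT females 2 and 6, and leaving out each array. Leaving out WT females 2, 3 and 6, and keeping only arrays with Alb under 10, were added after the data had been seen.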

Additional observations from a re-analysis of the deposited data

Results flagged for a closer look

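Among the 6 arrays of a group, a single array stood apart from the other 5 in the values below, by a gap past the 95% critical value of Dixon's test. Chance gives this in about 1 in 20 groups, and 21 of 268 groups examined showed it. WT female 2, the array of highest Alb, stood apart most often.

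In Vps39+/- females, Vps39+/- female 4 had the lowest Vps39 level (6.67, against 7.81 to 8.29 in the others). Vps39+/- female 1 was highest for Itga8 (6.48, against 5.95 to 6.11) and Rftn1 (6.85, against 6.36 to 6.51) and lowest for the mean of the mTOR and lysosomal regulators (7.502, against 7.64 to 7.71). Vps39+/- female 3 was lowest for Aurkc (5.80, against 6.09 to 6.22) and for Nppa (3.89, against 4.45 to 4.76). Vps39+/- female 5 was highest for Plekha7 (5.95, against 5.66 to 5.76) and lowest for Pdhb (10.67, against 10.77 to 10.82). Cox5b stood at 11.73 in Vps39+/- female 2, against 11.58 to 11.62 in the others, and Mrpl22 at 6.96 in Vps39+/- female 6, against 6.67 to 6.75.

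In WT females, WT female 2 was lowest for Pdlim2 (6.504, against 6.68 to 6.72), Slc2a4 (8.97, against 9.23 to 9.35), Fst (4.94, against 5.27 to 5.45) and the mean of the neuromuscular junction list (6.58, against 6.78 to 6.89). It was highest for Gclc (8.41, against 6.85 to 7.402) and for the means of the metallothionein and zinc list (7.12, against 6.77 to 6.86), the glucocorticoid list (8.79, against 8.28 to 8.42) and the interferon list (5.78, against 5.25 to 5.44). WT female 3 was highest for Trmt5 (6.53, against 5.97 to 6.17) and lowest for the mean of the cytosolic ribosome list (10.23, against 10.34 to 10.41). Bag2 stood at 7.16 in WT female 4, against 6.69 to 6.86 in the others.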

How the results depend on the processing

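No gene passed an adjusted p of 0.05 in any alternative, except that the title number as a fixed block gave 2 (Hacd3 lower and Lrtm1 higher, chosen here for passing), with 2573 unadjusted, in a fit over all 24 arrays where, among females, only title number 1 holds both genotypes. The unadjusted count of 1628 was 1271 to 1984 with single arrays left out and 1082 with only arrays of Alb under 10, a fit with fewer samples. The interaction count of 1525 was 1263 to 1839 with single arrays left out and 1012 without WT females 2, 3 and 6. By the methods' t-test 0 genes passed after adjustment, with 1461 before it. No paired analysis was possible because the replicate numbers follow accession order.

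Vps39 differed by 0.40 to 0.76 with single arrays left out, the highest without Vps39+/- female 4. Of the selections of arrays compared by exact permutation, only that one had a two-sided p under 0.05 (0.013). With only arrays of Alb under 10 Vps39 differed by -0.18, and there Vps39+/- female 4 is 1 of 2 in its group. Without WT females 2 and 6 the direction turned for Alb (0.59), Igf1 (0.074), Cyp2e1 (0.044) and Acta1 (-0.0015). Without WT females 2, 3 and 6 it turned for Alb (1.67), Igf1 (0.27), Cyp2e1 (0.43), Pck1 (0.21) and Emcn (-0.017). With only arrays of Alb under 10 it turned for Igf1 (0.15), Thrsp (0.028) and Emcn (-0.092). The cause was not tested. The other 1941 values of named genes kept their direction and side of the threshold.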
